A study of Mus musculus with 32 samples.

Results

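The genes described here are the nuclear genes for subunits of respiratory complexes II, III, IV and V, the electron transport enzymes after complex I and the ATP synthase of mitochondria. Members were chosen by name, not by their values: the protein-coding genes Sdha to Sdhd, Cyc1, those with symbols starting with Uqcr, the Cox4 to Cox8 subunits with their tissue isoforms, and the ATP synthase subunits starting with Atp5, or their newer names, with no pseudogene. They numbered 48 of the 37441 genes counted, with 4 in complex II, 9 in complex III, 18 in complex IV and 17 in complex V, and lay on 18 chromosomes. Of these, 46 passed the filter on low counts and were tested. Cox7b2 had no read in any library, and Cox8b had 3 reads over all GV libraries and 0 over all MII libraries.

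The data were RNA-seq read counts from mouse oocytes at the germinal vesicle stage (GV, the immature oocyte held in meiotic prophase) and at metaphase II (MII, the mature egg). The females were of the inbred strains B6 and D2 or their hybrid, B6xD2 F1, with no transgene or mutation named, and were used at 8 to 12 weeks of age. Each library came from 9 to 20 oocytes of 1 mother, and all zonae were dissolved in acid Tyrode's solution. IBMX, which blocks meiotic resumption, was in the medium for GV collection alone, so that stage and IBMX cannot be told apart. B6 MII and F1 GV had 6 libraries each, and the other groups, B6 GV, both stages of D2, and F1 MII, had 5 each. Each group had 3 libraries in batch 1 and 2 or 3 in batch 2, and the batches were sequenced on different instruments. Titles of batch 2 libraries carry 1 of 2 prefixes. In batch 2, the 2 F1 MII libraries share the same prefix and every B6 library has the other. Prefix and strain therefore cannot be told apart there for F1 against B6 in MII, and the batch term of 2 levels does not separate the prefixes.

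In respiring mitochondria, electrons from succinate enter at complex II (succinate dehydrogenase, also an enzyme of the citric acid cycle) and pass by ubiquinone to complex III, by cytochrome c to complex IV (cytochrome c oxidase), and from there to oxygen. Complexes III and IV pump protons, and complex V uses the returning protons to make ATP. Complex II is encoded in the nucleus alone, while the other complexes also hold subunits encoded in mitochondrial DNA, which were not analysed here. Oocytes rely on mitochondrial ATP from pyruvate, supplied in part by the surrounding granulosa cells, for meiotic maturation.

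Promoter sequences, from 250 bases before to 50 bases after a gene's start, were found in RefSeq (GRCm38.p6) for 36 of the 48 genes, as 39 promoters. The motif of NRF1, an activator of many respiratory genes (searched on both strands as GCGCA and GCGC with any 1 base between them), was in 10 of these 39, or 25.6%, beside 4.60% of 32851 promoters of all genes. The motif of ETS factors such as GABPA (CCGGAAGT, both strands) was in 4, or 10.3% beside 3.89% of all, and that of YY1 (AAGATGGCG, both strands) in 2, or 5.13% beside 1.40%. The Sp1 motif (GGGCGG, both strands) was in 35.9% of the members' promoters and 35.7% of all. The 150 bases before the start are shown for Sdha, the 1 member that rose at maturation, and for Uqcr11 and Atp5k, the members of complexes III and V with the largest falls. All 3 are on the minus strand, at chr13:74350241-74350390 for Sdha, chr10:80406822-80406971 for Uqcr11 and chr5:108434400-108434549 for Atp5k, and capitals mark NRF1 motifs in Sdha and Atp5k and the ETS motif in Uqcr11.
Sdha: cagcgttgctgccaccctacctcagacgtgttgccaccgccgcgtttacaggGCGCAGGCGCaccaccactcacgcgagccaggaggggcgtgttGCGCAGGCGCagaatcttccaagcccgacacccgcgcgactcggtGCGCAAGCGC
Uqcr11: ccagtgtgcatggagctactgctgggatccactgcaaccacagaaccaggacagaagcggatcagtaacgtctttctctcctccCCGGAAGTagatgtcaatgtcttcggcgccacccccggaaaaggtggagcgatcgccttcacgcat
Atp5k: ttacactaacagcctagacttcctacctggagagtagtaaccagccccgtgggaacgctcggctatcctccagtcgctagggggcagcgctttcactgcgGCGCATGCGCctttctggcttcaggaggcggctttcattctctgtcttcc
Each stretch thus holds at least 1 of the motifs searched, 3 of them NRF1 motifs in Sdha, and both the gene that rose and 2 genes that fell carry one.

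Libraries held between 18.7 and 39.7 M counted reads. All 12 oocyte markers examined were read at both stages in both batches, with summed levels from 8133 to 14787 CPM. CPM are counts scaled to a common library total by TMM (trimmed mean of M values), so they give shares of the RNA in a library and not amounts per oocyte. The members were lower in batch 2 than in batch 1, at a median of 0.399 of the batch 1 level in GV (lower for 42 of 46) and 0.438 in MII (lower for 40 of 45 with reads). Levels by stage in CPM are therefore given within batches, while most levels per length and by strain mix them. Batch was a term in every test unless stated.

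The first comparison asked how transcripts of the respiratory subunits differed between GV and MII oocytes. Transcripts of complexes III, IV and V were lower in MII eggs as summed levels, while complex II differed less. In batch 1, complex IV summed to 823, 1039 and 1122 CPM (lowest, median and highest of 9 GV libraries) and to 298, 373 and 509 CPM in 9 MII libraries. In batch 2 it summed to 383, 406 and 461 CPM in 7 GV libraries and 124, 148 and 196 CPM in 7 MII libraries. Within each batch every MII library was below every GV library, although GV libraries of batch 2 lay in the range of MII libraries of batch 1.

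Complex V summed to 1085, 1367 and 1472 CPM in GV and 544, 592 and 661 CPM in MII in batch 1. In batch 2 its sums were 770, 915 and 956 CPM in GV and 322, 402 and 471 CPM in MII. Complex III summed to 260, 311 and 327 CPM in GV and 78.6, 107 and 121 CPM in MII in batch 1, and to 105, 119 and 143 CPM in GV and 60.1, 66.5 and 70.9 CPM in MII in batch 2. Neither complex had overlapping stages within a batch. The MII to GV ratio of medians for complexes IV and V was about the same in both batches, at 0.359 and 0.365 for IV and 0.433 and 0.440 for V, while for complex III it was 0.345 in batch 1 and 0.560 in batch 2. Complex II summed to 242, 268 and 312 CPM in GV and 178, 198 and 260 CPM in MII in batch 1, and to 172, 203 and 234 CPM in GV and 182, 189 and 207 CPM in MII in batch 2. Its stages overlapped in both batches, with ratios of 0.739 and 0.933. These sums are descriptions and were not tested.

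**Figure D1:**
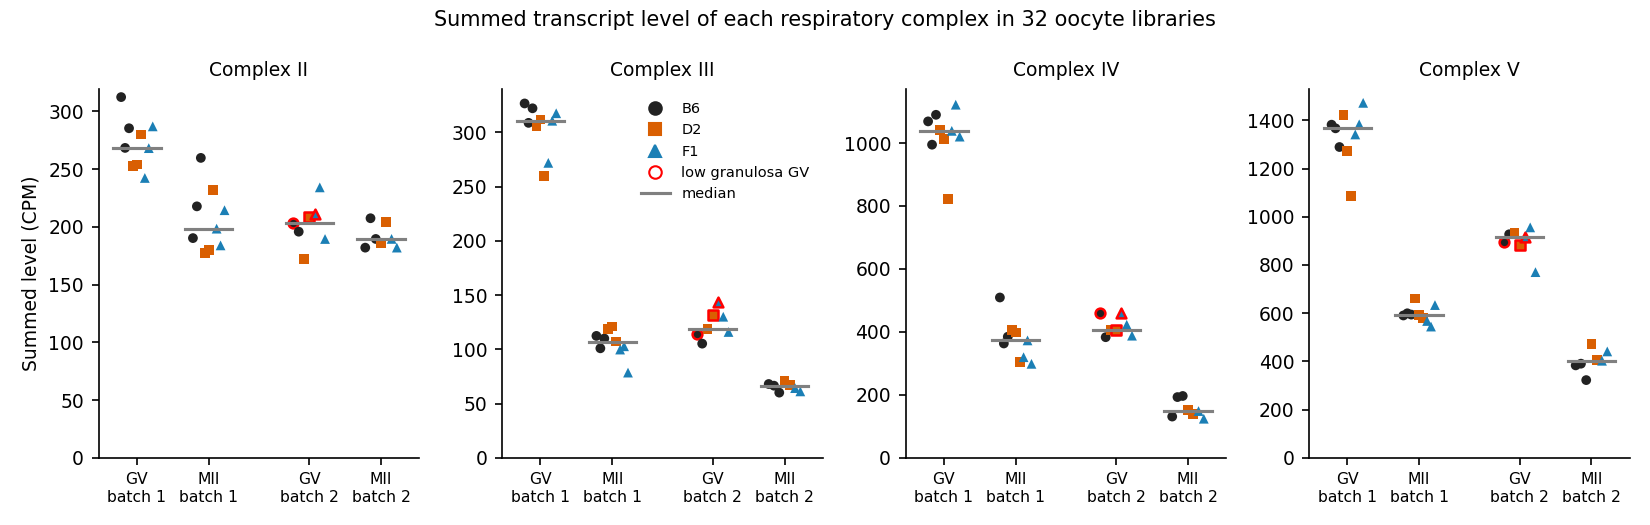
Summed level in CPM of the genes of each complex in every library (1 point per library, by strain), by stage and batch on the x axis, with grey lines at the medians and red outlines on 3 GV libraries of low granulosa marker level. For complexes III, IV and V every MII library lies below every GV library of its batch, while for complex II the stages overlap.

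Gene by gene, 41 of the 46 tested members fell from GV to MII as a mean of the 3 strains and 1 rose, by the quasi-likelihood test of edgeR (Benjamini-Hochberg adjusted p over all genes, threshold 0.05). Among all 19003 genes tested, 29.0% were lower and 22.9% higher in MII. The median log2 change was -1.57 over the members and -0.06 over all genes tested. Of the members called lower, 32 were at least 2-fold lower, beside 3928 of all 19003 genes called so. In each strain by itself, 32 members were lower in B6, 34 in F1 and 32 in D2, with 0 higher in any, where 16.4%, 18.0% and 15.6% of all genes were called lower and 10.3%, 14.9% and 13.1% higher. The count at an unadjusted p under 0.05 was 36 in B6, 39 in F1 and 34 in D2, beside 36.9%, 41.9% and 39.3% of all genes in either direction. DESeq2 called 32, 37 and 34, beside 29.0%, 34.8% and 29.9%. The median change was -1.56 in B6, -1.90 in F1 and -1.58 in D2. The same 27 members were called lower in each strain. The share of all genes called lower in all 3 strains was not computed, and it cannot exceed the 15.6% of D2. In these pooled samples, fewer cells of a type and less RNA per cell cannot be told apart.

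**Figure D2:**
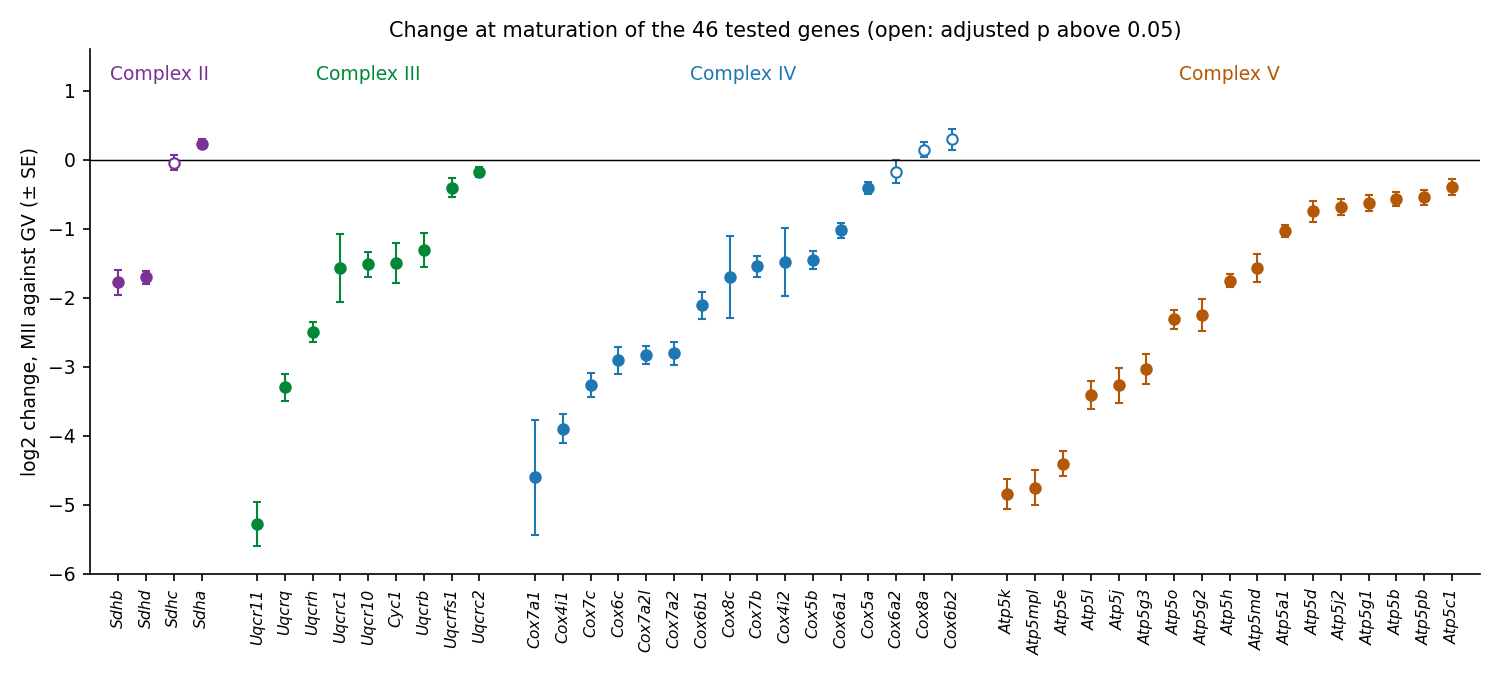
Log2 change from GV to MII (mean of the strains, ± SE) of the 46 tested genes, ordered within each complex from the largest fall, with open circles for adjusted p above 0.05. All 9 genes of complex III and all 17 of complex V lie below 0, down to -5.27 for Uqcr11, and Sdha is the 1 gene called higher.

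In complex II, the iron-sulfur subunit and 1 membrane anchor fell while the flavoprotein rose. Sdhb, the iron-sulfur subunit, was at 13.2, 18.8 and 23.4 CPM in GV and 1.12, 4.98 and 9.30 CPM in MII in batch 1, and at 6.86, 7.42 and 9.79 CPM in GV and 1.53, 2.37 and 3.07 CPM in MII in batch 2. All MII libraries were below all GV libraries within each batch, and Sdhb fell by 1.77 ± 0.18 on the log2 scale (SE; adjusted p = 5.49e-10, edgeR). Sdhd, a membrane anchor that helps bind ubiquinone, was at 71.9, 80.5 and 102 CPM in GV and 20.2, 27.9 and 36.1 CPM in MII in batch 1. In batch 2 it was at 27.9, 38.3 and 50.0 CPM in GV and 6.97, 10.8 and 13.0 CPM in MII, again without overlap, and it fell by 1.70 ± 0.10 (adjusted p = 1.69e-16, edgeR).

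Sdha, the flavoprotein that oxidises succinate, was at 54.6, 77.7 and 90.5 CPM in GV and 74.0, 90.0 and 110 CPM in MII in batch 1, and at 69.0, 83.9 and 99.9 CPM in GV and 81.4, 97.2 and 112 CPM in MII in batch 2. Its stages overlapped in both batches, and it rose by 0.23 ± 0.07 on the log2 scale (adjusted p = 0.00362, edgeR). The rise was not called in batch 2 alone (0.13, adjusted p = 0.355, edgeR) or with the granulosa marker level as a covariate (0.15, adjusted p = 0.484, edgeR). That level differs between the stages in all but 3 GV libraries, so the covariate overlaps with stage, and the SE with it was 0.12. A call lost with this covariate therefore does not decide whether a member changed. Sdhc, the other membrane anchor, had medians of 98.1 and 72.9 CPM in batch 1 and 76.6 and 74.7 CPM in batch 2, with overlap in both, and a change of -0.04 ± 0.11 (adjusted p = 0.765, edgeR). Per length, Sdhd had the highest level of the complex in GV, at 52.0 ± 20.4 RPKM (CPM per kilobase of transcript, SD, n = 16), and Sdhc in MII, at 40.9 ± 10.5 RPKM, where Sdhd was at 16.5 ± 7.78 RPKM. Sdhc in GV, at 42.1 ± 9.47 RPKM, was within the spread of Sdhd.

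In complex III, all 9 members fell. The largest falls were those of small accessory subunits, and the smallest were those of Uqcrc2, a core protein, and of the Rieske protein. Uqcrc1, the other core protein, changed by -1.57 (adjusted p = 0.00766, edgeR), further than the small subunit Uqcrb at -1.31. The Uqcrc1 call was lost in batch 2 alone (adjusted p = 0.284, edgeR) and with the granulosa covariate (adjusted p = 0.689, edgeR). Uqcr11 was at 29.7, 35.8 and 45.4 CPM in GV and 0.0724, 0.959 and 1.73 CPM in MII in batch 1, and at 2.92, 4.73 and 5.71 CPM in GV and 0, 0.162 and 0.415 CPM in MII in batch 2. The MII libraries were below every GV library of either batch, and 2 of the 16 had no Uqcr11 read. Uqcr11 fell by 5.27 ± 0.32 on the log2 scale (adjusted p = 2.45e-15, edgeR). Uqcrq, another small subunit, was at 51.7, 67.0 and 104 CPM in GV and 2.84, 4.92 and 8.68 CPM in MII in batch 1. It was at 4.66, 6.75 and 8.34 CPM in GV and 0.173, 1.40 and 2.11 CPM in MII in batch 2. The stages did not overlap within a batch, although MII libraries of batch 1 reached the GV levels of batch 2. Uqcrq fell by 3.30 ± 0.20 (adjusted p = 7.69e-16, edgeR). Its gene span overlaps Gdf9, an oocyte growth factor gene, and the split of reads between them is uncertain.

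Uqcrh, the hinge protein at the cytochrome c1 side, had the highest level per length of the complex in GV, at 109 ± 51.4 RPKM, and was at 19.2 ± 11.6 RPKM in MII (SD, n = 16). It fell by 2.50 ± 0.15 on the log2 scale (adjusted p = 7.18e-16, edgeR). Uqcrc2, a core protein, had the highest level per length in MII, at 27.1 ± 5.80 RPKM, after 30.3 ± 3.83 RPKM in GV. Uqcrc2 was at 50.7, 61.0 and 69.5 CPM in GV and 48.8, 58.2 and 73.1 CPM in MII in batch 1, and at 43.5, 55.2 and 62.3 CPM in GV and 36.4, 42.0 and 47.1 CPM in MII in batch 2. Its stages overlapped in both batches. It had the smallest fall of the complex, 0.18 ± 0.07 (adjusted p = 0.0362, edgeR), and that call was lost in batch 1 alone, without the 3 GV libraries of low granulosa level (adjusted p = 0.179, edgeR), without a filter on low counts, without a batch term and without any 1 of 12 of the 32 libraries. Between these extremes, Uqcrfs1, the Rieske iron-sulfur protein, fell by 0.41 ± 0.14 (adjusted p = 0.0125, edgeR), and Cyc1, cytochrome c1, by 1.5 ± 0.29 (adjusted p = 3.88e-05, edgeR). With the granulosa covariate neither was called, at -0.28 for Uqcrfs1 (adjusted p = 0.534, edgeR) and -0.84 for Cyc1 (adjusted p = 0.308, edgeR), and Uqcrfs1 was not called in batch 2 alone (adjusted p = 0.174, edgeR).

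In complex IV, 13 of 16 tested members fell, and the 3 not called were Cox8a and the tissue isoforms Cox6a2 and Cox6b2. Cox4i1, the common isoform of subunit 4, was at 65.5, 75.0 and 96.6 CPM in GV and 1.16, 3.55 and 7.10 CPM in MII in batch 1, and at 9.65, 17.9 and 19.9 CPM in GV and 0.260, 1.81 and 3.70 CPM in MII in batch 2. All MII libraries were below all GV libraries over both batches, and Cox4i1 fell by 3.89 ± 0.21 on the log2 scale (adjusted p = 8.12e-17, edgeR). Cox7c, a small subunit, had the highest level per length of the complex in GV, at 258 ± 108 RPKM (SD, n = 16), and was at 31.2 ± 22.6 RPKM in MII. Cox7c was at 127, 186 and 222 CPM in GV and 8.18, 22.7 and 40.8 CPM in MII in batch 1, and at 67.5, 73.1 and 113 CPM in GV and 2.25, 7.74 and 9.53 CPM in MII in batch 2. The stages did not overlap over both batches either, and Cox7c fell by 3.27 ± 0.17 (adjusted p = 3.57e-16, edgeR).

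Cox7a2l, a protein linked to supercomplexes of complexes III and IV, was at 95.6, 145 and 170 CPM in GV and 16.5, 19.5 and 40.3 CPM in MII in batch 1. In batch 2 it was at 51.4, 86.3 and 126 CPM in GV and 6.41, 10.7 and 13.7 CPM in MII, so that no MII library reached a GV library. Cox7a2l fell by 2.82 ± 0.13 on the log2 scale (adjusted p = 1.11e-18, edgeR). Cox6a1, the common isoform of subunit 6a, had the highest level per length in MII, at 101 ± 52.3 RPKM after 209 ± 102 RPKM in GV, and Cox5a was second in MII at 88.7 ± 47.0 RPKM, within that spread. Cox6a1 fell by 1.02 ± 0.11 (adjusted p = 7.06e-10, edgeR) and Cox5a by 0.41 ± 0.09 (adjusted p = 3.03e-04, edgeR), a call lost without a batch term (adjusted p = 0.305, edgeR).

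Cox8a, the common isoform of subunit 8, had the smallest change of the complex. It was at 32.6, 54.2 and 70.4 CPM in GV and 43.3, 62.9 and 82.3 CPM in MII in batch 1, and at 17.1, 22.1 and 34.5 CPM in GV and 17.3, 27.4 and 28.9 CPM in MII in batch 2. The stages overlapped in both batches, and the change was 0.14 ± 0.11 on the log2 scale (adjusted p = 0.286, edgeR). Per length, Cox8a was sixth in the complex in GV, at 73.1 ± 31.7 RPKM, and the third in MII, at 83.4 ± 38.3 RPKM (SD, n = 16).

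Complex IV has isoforms named for the tissues where they are known, such as heart and skeletal muscle or testis. Of the 7 isoforms, 5 were tested, and the 2 with the highest levels in oocytes were Cox6b2 (testis) and Cox6a2 (heart and muscle). Cox6b2 was at 15.3, 28.2 and 42.7 CPM in GV and 13.0, 30.3 and 48.0 CPM in MII in batch 1, and at 7.32, 9.79 and 14.5 CPM in GV and 9.14, 17.7 and 19.7 CPM in MII in batch 2. The stages overlapped, and the change was 0.30 ± 0.15 on the log2 scale (adjusted p = 0.107, edgeR). Its common partner Cox6b1 fell by 2.11 ± 0.19 (adjusted p = 3.37e-11, edgeR). As a share of the pair per length, Cox6b2 made up 26.1%, 41.4% and 60.2% in GV and 63.2%, 77.1% and 91.1% in MII in batch 1 (lowest, median and highest). In batch 2 the share was 27.6%, 54.8% and 59.7% in GV and 75.5%, 81.1% and 91.1% in MII. The testis isoform was thus the larger part of the pair in each MII library of both batches.

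Cox6a2 was at 4.77, 10.0 and 20.4 CPM in GV and 3.42, 7.19 and 13.8 CPM in MII in batch 1, and at 6.37, 10.1 and 16.1 CPM in GV and 5.37, 10.5 and 22.5 CPM in MII in batch 2. The change was -0.17 ± 0.17 on the log2 scale (adjusted p = 0.404, edgeR). Its share of the Cox6a pair had a median of 4.65% in GV and 8.07% in MII in batch 1, and 12.4% and 24.7% in batch 2, with overlapping stages, so that Cox6a1 remained the main isoform in every library. Cox4i2, the lung and hypoxia-linked isoform of subunit 4, had medians of 2.05 CPM in GV and 1.08 CPM in MII in batch 1, and 1.69 and 0.607 CPM in batch 2. It fell by 1.48 ± 0.49 (adjusted p = 0.0117, edgeR), and its span overlaps Bcl2l1. That call was lost in batch 1 alone and without the 3 GV libraries of low granulosa level, where the change was -0.90 (adjusted p = 0.116, edgeR). Cox8c, a testis isoform, did not exceed 1.04 CPM in any library and fell by 1.70 ± 0.60 (adjusted p = 0.0161, edgeR), a call lost in batch 1 alone, without a batch term and with the granulosa covariate (adjusted p = 0.227, edgeR). Cox7a1, the heart and muscle isoform of subunit 7a, had 145 reads over 11 of 16 GV libraries and 2 reads over 2 of 16 MII libraries. Its GV median was 0.538 CPM in batch 1 and 0 CPM in batch 2, where the stages overlapped and Cox7a1 was not tested by itself. Pooled over both batches, the MII level was 1.42% of the GV level, with an exact 95% interval of 0.170% to 5.21% that covers counting error only. The call (adjusted p = 2.77e-05, edgeR) was lost once the granulosa level was a covariate (adjusted p = 0.401, edgeR).

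In complex V, all 17 members fell, from 4.84 on the log2 scale for Atp5k to 0.40 for Atp5c1. Atp5k, the small e subunit at the dimer interface, was at 33.9, 54.2 and 62.5 CPM in GV and 0.977, 1.40 and 3.25 CPM in MII in batch 1, and at 6.91, 8.45 and 14.7 CPM in GV and 0.0385, 0.317 and 1.48 CPM in MII in batch 2. No MII library reached any GV library, and the fall was 4.84 ± 0.22 (adjusted p = 5.86e-19, edgeR). Atp5k has 4 named pseudogenes, and how reads shared with them were counted is not given in the sources used here. Atp5mpl, the proteolipid also called 6.8PL, was at 23.9, 47.6 and 63.1 CPM in GV and 0.109, 1.38 and 2.51 CPM in MII in batch 1, and at 6.59, 11.3 and 22.8 CPM in GV and 0.169, 0.605 and 1.33 CPM in MII in batch 2. It too was without overlap over all libraries, and fell by 4.75 ± 0.25 (adjusted p = 5.17e-17, edgeR). Atp5e, the epsilon subunit of the central stalk, fell by 4.40 ± 0.18 (adjusted p = 1.97e-20, edgeR), which was the lowest adjusted p of all members.

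The beta, alpha and gamma subunits of the catalytic head had smaller falls than Atp5k, Atp5mpl and Atp5e. Smaller falls were not particular to the head, since Atp5pb (-0.55), Atp5g1 (-0.63) and Atp5j2 (-0.68), which lie outside it, also changed less than the alpha subunit. Atp5b, the catalytic beta subunit, had the highest level per length of the complex at both stages, with 157 ± 41.6 RPKM in GV and 103 ± 19.4 RPKM in MII (SD, n = 16). Atp5b was at 170, 252 and 304 CPM in GV and 147, 191 and 272 CPM in MII in batch 1, and at 331, 366 and 417 CPM in GV and 142, 194 and 255 CPM in MII in batch 2. The stages overlapped in batch 1 and not in batch 2, and Atp5b fell by 0.57 ± 0.10 on the log2 scale (adjusted p = 1.00e-05, edgeR), at -0.33 in batch 1 alone and -0.98 in batch 2 alone. Atp5a1, the alpha subunit, fell by 1.03 ± 0.09 (adjusted p = 3.62e-12, edgeR). Atp5c1, the gamma subunit that turns inside the head, was at 24.2, 38.1 and 47.7 CPM in GV and 21.6, 26.5 and 41.3 CPM in MII in batch 1, and at 21.3, 27.9 and 38.1 CPM in GV and 13.3, 20.7 and 36.2 CPM in MII in batch 2. With overlap in both batches it had the smallest fall, 0.40 ± 0.12 (adjusted p = 0.00403, edgeR), and its call was lost in batch 2 alone (adjusted p = 0.156, edgeR) and with the granulosa covariate (-0.02, adjusted p = 0.977, edgeR).

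Subunit c, which forms the rotating ring in the membrane, is encoded by 3 genes that give the same mature protein after different targeting peptides are removed. Atp5g1 had medians of 121 CPM in GV and 91.9 CPM in MII in batch 1, and 36.3 and 21.4 CPM in batch 2. Atp5g1 fell by 0.63 ± 0.11 on the log2 scale (adjusted p = 1.20e-05, edgeR), at -0.98 in batch 2 alone, and was not called without a batch term (adjusted p = 0.298, edgeR). Atp5g2 had medians of 51.3 and 7.42 CPM in batch 1 and 3.74 and 1.13 CPM in batch 2, and fell by 2.25 ± 0.23 (adjusted p = 1.17e-09, edgeR), at -1.46 in batch 2 alone. Atp5g3 had medians of 18.4 and 2.36 CPM in batch 1 and 7.00 and 1.07 CPM in batch 2, and fell by 3.03 ± 0.21 (adjusted p = 5.65e-14, edgeR). All 3 genes fell. Levels are not compared between them, since the annotated transcripts of Atp5g1 differ widely in length.

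Counted without a model, 23 of the 46 members had every MII library below every GV library within both batches, beside 2.39% of all genes tested. These were 2 members of complex II, 3 of III, 8 of IV and 10 of V. Over all 32 libraries, batches mixed, 11 members did so (beside 0.858% of all genes), namely Uqcr11, Cox4i1, Cox6c, Cox7a2l, Cox7b, Cox7c, Atp5e, Atp5g3, Atp5j, Atp5k and Atp5mpl. In the opposite direction there were 0 members, beside 0.947% of all genes within both batches. Medians were higher in MII in both batches for 3 members, Sdha, Cox8a and Cox6b2, and lower in both for 41. The directions of medians were not counted over all genes. In the edgeR test, batch 1 alone gave 38 lower and 1 higher (28.5% and 18.4% of all genes), and batch 2 alone gave 35 lower and 0 higher (14.1% and 9.53%).

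Markers of other ovarian cells differed between the stages too. Of 23 tested granulosa and cumulus markers, 17 fell and 3 rose in the test of the mean of strains. Of 14 stroma, vessel and blood markers, 9 fell and 1 rose. Among all genes 29.0% were lower and 22.9% higher in that test. The 24 granulosa markers summed to 787 to 2600 CPM in GV and 309 to 487 CPM in MII in batch 1, and to 348 to 4450 CPM in GV and 365 to 520 CPM in MII in batch 2, where 3 of the 24 were at 0 in all MII libraries of batch 1 and 2 of 24 in those of batch 2. The stroma, vessel and blood markers summed to 63.3 to 416 CPM in GV and 38.6 to 79.9 CPM in MII in batch 1, and to 22.5 to 89.5 and 40.1 to 76.9 CPM in batch 2, with 4 and 2 of 14 at 0 in the MII libraries.

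In batch 2, 3 GV libraries, 1 of each strain, had granulosa levels like those of MII libraries, with marker sums of 348 to 377 CPM and 3 of 24 markers at 0. The 48 respiratory genes summed to 1627 to 1729 CPM in these 3 libraries, within the range of 1464 to 1743 CPM over the GV libraries of batch 2 and above the 764 to 880 CPM of its MII libraries. Leaving the 3 out, 39 members fell and 1 rose (29.8% and 23.0% of all genes lower and higher). With the granulosa level as a covariate, 34 fell and 0 rose, beside 8.35% and 5.88% of all genes, and the median change of the members was -1.68. Outside the 3 libraries, every GV library had a higher granulosa level than every MII library, so this covariate and stage are hard to tell apart. By DESeq2 with the main design, 41 fell and 1 rose (31.3% and 21.7% of all genes).

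**Figure D3:**
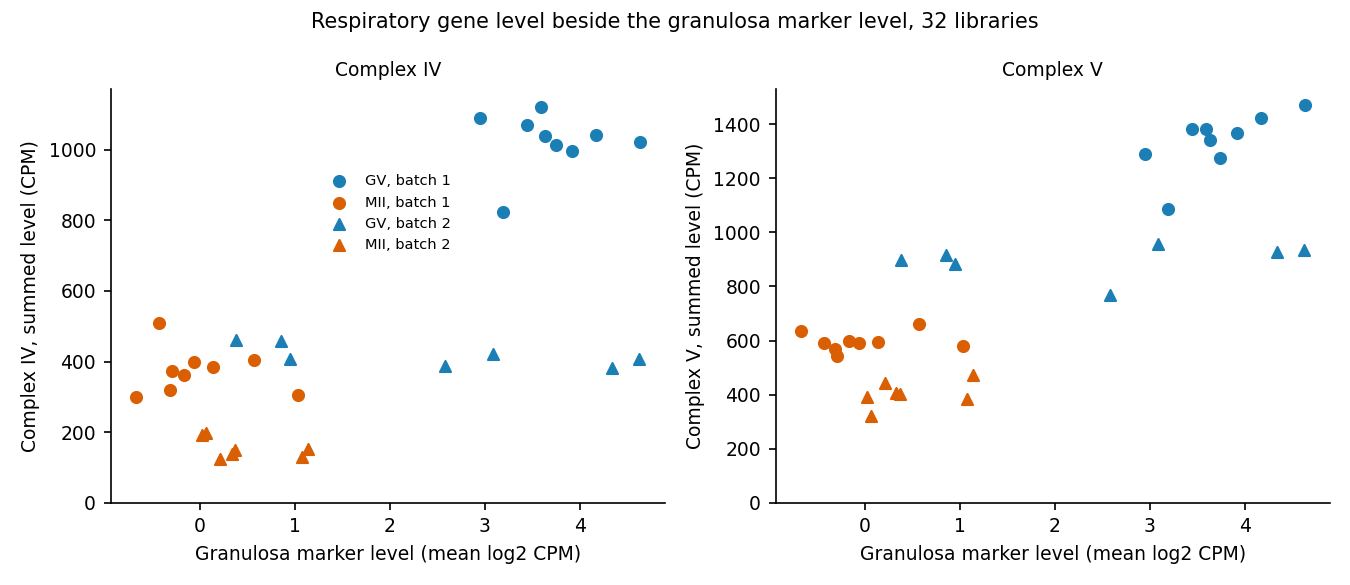
Summed level of complexes IV and V (y axis, CPM) against the granulosa marker level (x axis, mean log2 CPM of 24 markers) in 32 libraries, with blue for GV, orange for MII, circles for batch 1 and triangles for batch 2. The 3 GV triangles at the left, at 0.38 to 0.95 on the x axis, lie beside the other GV triangles in height and above all MII triangles.

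The largest falls were those of short transcripts. Annotated lengths ran from 322 to 2900 nt, with a median of 670 nt, taking each gene's median over its protein-coding transcripts. The 31 tested members under 1000 nt had a median log2 change of -2.25, and the 15 longer ones a median of -0.63. Among all tested genes with a length, those under 1000 nt had a median of -0.73 and the longer ones 0.00. Spearman's correlation of length and change was 0.502 across the 46 members and 0.199 across 14926 tested genes. Genes of 1 library share depth and amplification, and these values are descriptions across genes. The correlation was 0.511 in batch 1 alone, 0.495 in batch 2 alone and 0.468 with the shortest transcript of each gene. Some short transcripts lay outside the pattern, since Cox6b2, Cox8a and Cox6a2 are under 1000 nt and were not called. Among longer ones Cox7a2l, at 1103 nt, fell by 2.82. Whether length took part in the changes was not tested.

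**Figure D4:**
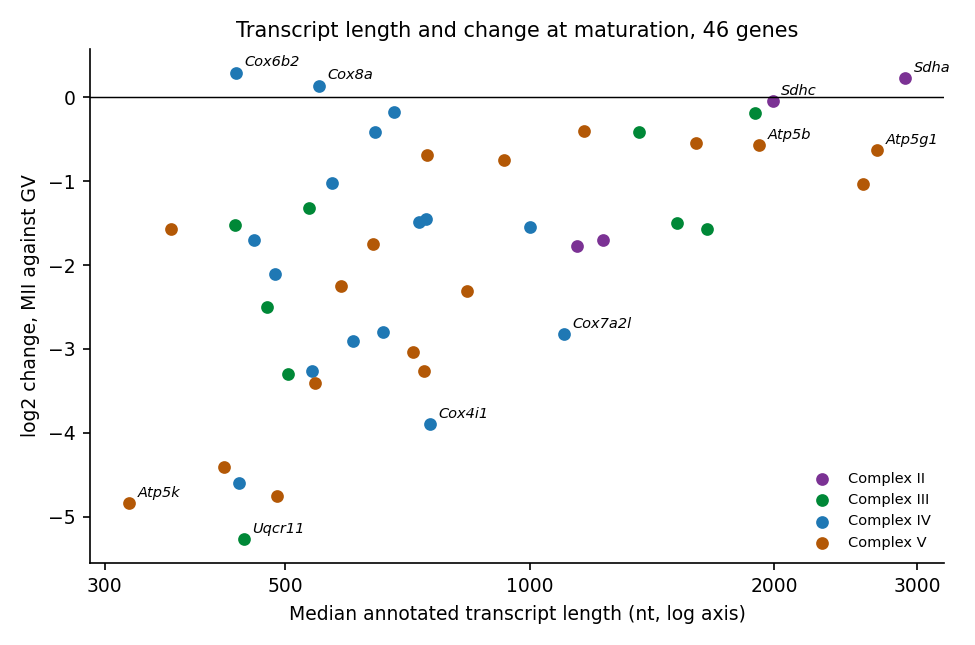
Log2 change from GV to MII (y axis) against the median annotated transcript length (x axis, nt, log scale) of the 46 tested genes, coloured by complex. Falls below -4 occur in transcripts under 500 nt, and above 1000 nt Cox7a2l has the largest fall.

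Other genes of the pathway were counted in the same test. Of 36 nuclear subunit genes of complex I, which feeds electrons from NADH into the chain, 35 fell and 0 rose, with a median of -1.87, and Ndufb5 fell by 2.96 ± 0.15 and Ndufa11 by 3.83 ± 0.23 (adjusted p = 1.17e-17 and 5.79e-16, edgeR). The 3 genes listed as electron carriers or associated with them, Cycs, Cyct and Ndufa4, all fell, with Cycs, somatic cytochrome c, at -1.33 ± 0.13 and Ndufa4, a complex IV associated protein, at -0.86 ± 0.11. Of the assembly factors, 1 of 4 fell for complex II, 4 of 6 for complex III, 10 of 20 tested for complex IV with 2 higher, and 4 of 6 for complex V, beside 29.0% of all genes lower and 22.9% higher. Examples are Cox17, a copper chaperone, which fell by 3.67 ± 0.23 (adjusted p = 5.47e-15, edgeR), and Cox14, which fell by 3.30 ± 0.19 (adjusted p = 2.18e-16, edgeR). Uqcc2, needed for cytochrome b, fell by 2.19 ± 0.25 (adjusted p = 4.43e-09, edgeR). Atpif1, the inhibitor of complex V, fell by 1.03 ± 0.14 (adjusted p = 1.16e-07, edgeR).

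Of 13 citric acid cycle enzymes, 7 fell and 3 rose, with a median of -0.20, beside 29.0% of all genes lower and 22.9% higher. Mdh2, malate dehydrogenase, fell by 0.99 ± 0.08 (adjusted p = 3.35e-12, edgeR), and Cs, citrate synthase, rose by 0.54 ± 0.05 (adjusted p = 6.85e-11, edgeR). Of 11 tested nuclear regulators of respiratory genes, 3 fell and 4 rose, with a median of 0.02, beside the same shares of all genes. The part of the regulators that fell was thus near that of all genes. Pprc1, a coactivator of the PGC-1 family, rose by 0.50 ± 0.08 (adjusted p = 1.29e-06, edgeR), and Gabpa, the ETS factor whose span overlaps the member Atp5j, fell by 2.74 ± 0.47 (adjusted p = 1.08e-05, edgeR). Reads of Gabpa and Atp5j cannot be told apart where the genes overlap if strand was not used in counting. Nrf1 changed by 0.02 ± 0.06 (adjusted p = 0.851, edgeR), which was not called.

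The second comparison set the parental strains against each other at each stage. In GV oocytes 1 of 46 members differed between D2 and B6, beside 20.5% of all genes. Cox6a2 was at 10.0, 11.8 and 20.4 CPM in the B6 GV libraries of batch 1 and 11.4 and 11.6 CPM in those of batch 2, and at 4.77, 6.14 and 11.0 CPM and 6.37 and 6.55 CPM in D2. The highest D2 library was above the lowest B6 library, and the strains did not overlap in batch 2. Cox6a2 was lower in D2 by -0.91 ± 0.30 on the log2 scale (adjusted p = 0.0243, edgeR). It was not called within either batch alone, nor without any 1 of 7 of the 32 libraries, which included B6 GV batch 1 replicate 5, the highest (-0.58, adjusted p = 0.192, edgeR).

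In MII eggs 5 members differed between D2 and B6, 2 higher and 3 lower in D2, beside 13.4% and 13.0% of all genes. Cox6a2 was at 7.19, 14.2 and 22.5 CPM in 6 B6 libraries (lowest, median and highest) and at 3.42, 4.63 and 6.32 CPM in batch 1 and 5.37 and 9.22 CPM in batch 2 of D2. All D2 libraries were below all B6 libraries within each batch. The mean was 15.1 ± 5.25 CPM in B6 (SD, n = 6) and 5.79 ± 2.19 in D2 (SD, n = 5), a difference of -1.35 ± 0.29 on the log2 scale (adjusted p = 4.88e-04, edgeR). Of the 5 calls, Cox6a2 was the 1 that held in all 43 other settings and leave-outs tried, with adjusted p up to 0.0341 in edgeR or DESeq2. F1 eggs lay between the parents in mean, at 8.06 ± 2.68 CPM (SD, n = 5), and did not pass against either. The span of Cox6a2 overlaps Itgad, an integrin gene, and how reads there were assigned is not given in the sources used here.

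Cox5b, a zinc-binding subunit of complex IV, was at 6.26, 17.2 and 38.0 CPM in B6 eggs and at 5.62, 9.85 and 21.1 CPM in D2 eggs, which overlap, and was lower in D2 by -0.74 ± 0.21 (adjusted p = 0.00867, edgeR). Cox7a2l was at 10.7, 15.2 and 40.3 CPM in B6 and 7.01, 16.5 and 19.5 CPM in D2, also with overlap, at -0.62 ± 0.21 (adjusted p = 0.0264, edgeR). Its D2 median was above its B6 median over mixed batches, opposite to the call. In batch 2, however, every D2 library of Cox7a2l was below every B6 library. Sdhb was at 1.12, 2.10 and 8.56 CPM in B6 and 2.37, 8.10 and 9.30 CPM in D2, a difference of 0.89 ± 0.31 (adjusted p = 0.0282, edgeR). In batch 2 every D2 library of Sdhb was above every B6 library, and in batch 1 B6 replicate 1 reached the D2 range. Uqcrb, the ubiquinone-binding protein of complex III, was at 0.252, 0.741 and 3.43 CPM in B6 and 0.831, 4.41 and 9.44 CPM in D2, a difference of 1.42 ± 0.42 (adjusted p = 0.0115, edgeR). In batch 1 its D2 libraries were all above the B6 libraries. Within batch 1 alone 3 members were called and within batch 2 alone 2. Without D2 MII batch 1 replicate 2 the count was 3, and without B6 MII batch 1 replicate 1 it was 8. Shares of all genes called in these settings are not given here.

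**Figure D5:**
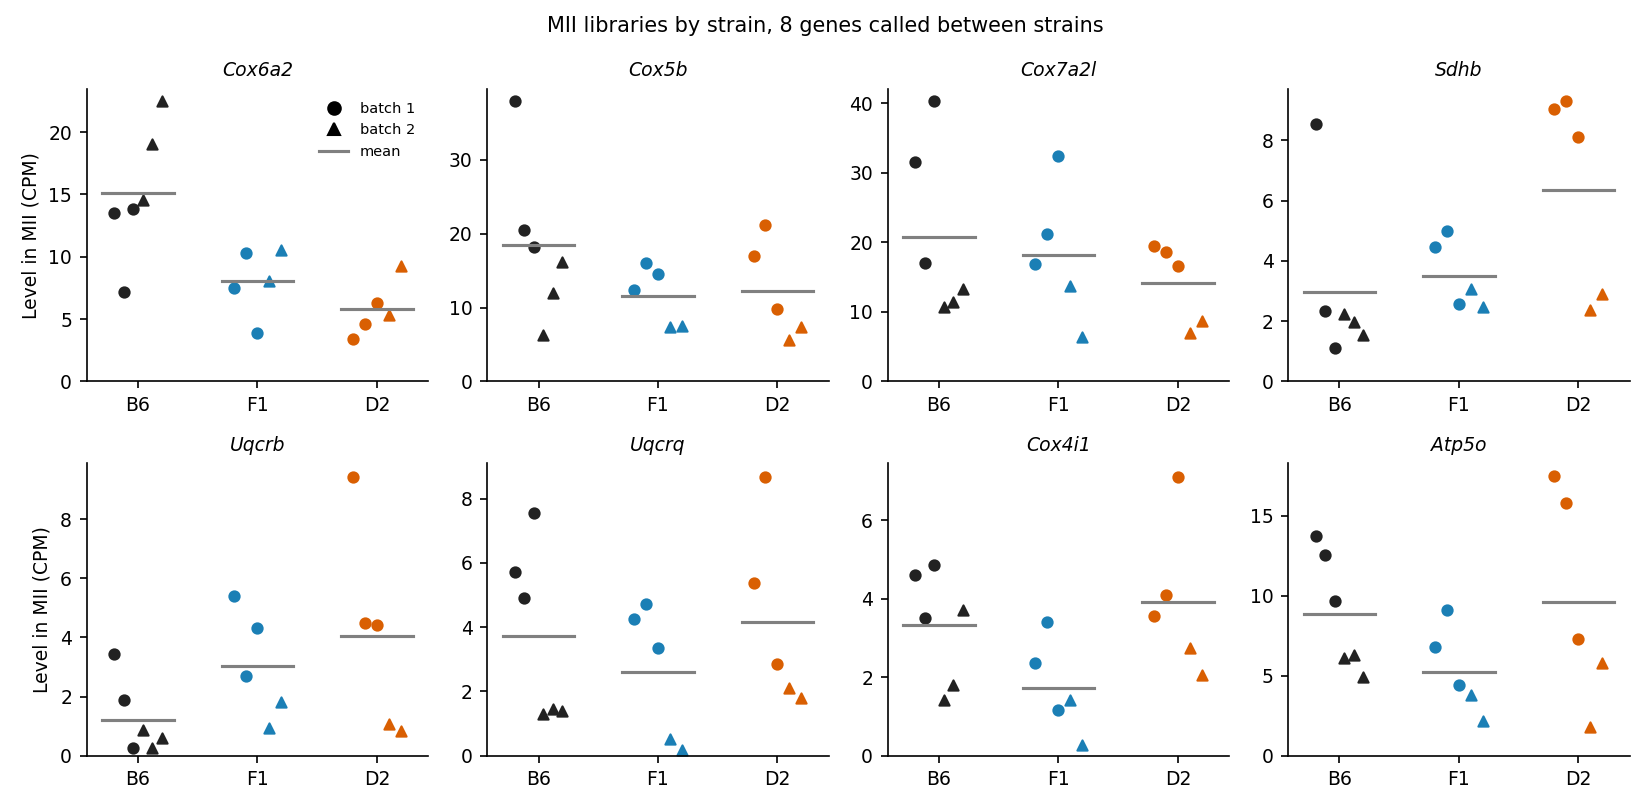
Levels in MII (y axis, CPM) of the 8 genes called between strains, 1 point per library for B6, F1 and D2, with circles for batch 1, triangles for batch 2 and grey lines at the means. Over both batches the ranges of the strains overlap for every gene shown. Cox6a2 separates B6 from D2 within each batch, while Uqcrb does so in batch 1 and Sdhb and Cox7a2l in batch 2.

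The third comparison set the hybrid against its parents, and since both contrasts use the same F1 libraries, they are not independent. In GV oocytes 0 members passed in edgeR's test for F1 against B6 (5.50% of all genes) and 0 for F1 against D2 (6.05%), with 1 and 0 members at an unadjusted p under 0.05 (17.1% and 16.1% of all genes), and 0 and 0 called by DESeq2 (9.35% and 7.92%). In MII eggs 4 members were lower in F1 than in B6, beside 2.70% of all genes, and 3 were lower in F1 than in D2, beside 3.20%, while 0 were higher in either (4.66% and 4.92% of all genes). DESeq2 called 9 and 5 members, all lower in F1, beside 10.9% and 11.3% of all genes in either direction.

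Uqcrq, Cox4i1 and Atp5o (the stalk subunit that links head and stator) were lower in F1 eggs in both contrasts. Over both batches, Cox4i1 was at 0.260, 1.43 and 3.39 CPM in F1, 1.43, 3.60 and 4.86 CPM in B6 and 2.06, 3.55 and 7.10 CPM in D2, so that ranges overlapped. Cox4i1 differed by -1.26 ± 0.35 on the log2 scale from B6 (adjusted p = 0.0222, edgeR) and by -1.29 ± 0.36 from D2 (adjusted p = 0.0202, edgeR). Uqcrq was at 0.173, 3.36 and 4.72 CPM in F1, 1.30, 3.19 and 7.56 CPM in B6 and 1.78, 2.84 and 8.68 CPM in D2, with differences of -1.08 ± 0.34 and -1.18 ± 0.35 (adjusted p = 0.0426 and 0.0280, edgeR). Its F1 median was above both parental medians over mixed batches, and the lowest values were those of the F1 libraries of batch 2. Atp5o was at 2.17, 4.41 and 9.15 CPM in F1, 4.92, 7.97 and 13.7 CPM in B6 and 1.82, 7.28 and 17.5 CPM in D2, with differences of -0.92 ± 0.24 and -0.76 ± 0.25 (adjusted p = 0.0124 and 0.0460, edgeR). Cox5b was lower in F1 than in B6, at 7.43, 12.4 and 16.0 CPM in F1 eggs and a difference of -0.75 ± 0.21 (adjusted p = 0.0246, edgeR).

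These F1 calls rest on few libraries, and in batch 2 the F1 and B6 MII libraries also differ in title prefix. Against B6, 1 member was called in batch 1 alone and 0 in batch 2 alone, and the count ranged from 0 to 2 without any 1 of 4 libraries (F1 MII batch 1 replicates 3 and 5, F1 MII batch 2 replicate 2 and B6 MII batch 2 replicate 3). Against D2, 1 was called in batch 2 alone, and the count was 0 or 1 without any 1 of 5 libraries (F1 MII batch 1 replicate 5, F1 MII batch 2 replicate 2, D2 MII batch 1 replicate 3 and D2 MII batch 2 replicates 1 and 2). Shares of all genes called in these settings are not given here. For the stage change, batch 2 alone called 14.1% of all genes lower, beside 29.0% in the main test.

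The last comparison tested whether the change from GV to MII differed between strains. In edgeR's test, 0 of 46 members passed for D2 minus B6 (0.105% of all genes), F1 minus B6 (0.0105%) and F1 minus D2 (0.0316%), and DESeq2 called 0 in each (0.560%, 0.10% and 0.102% of all genes). At an unadjusted p under 0.05 there were 1, 6 and 5 members, beside 9.58%, 8.14% and 5.49% of all genes. The median difference over the members was 0.03 for D2 minus B6, -0.31 for F1 minus B6 and -0.23 for F1 minus D2. Differences between strains in the fall at maturation were not detectable for any member at this number of libraries.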

How the data were processed

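RNA of oocyte pools was amplified by single primer isothermal amplification and read as single reads of 50 nt, per the labels' protocols. The submitters' processing notes name the build GRCm38.p4 and the tools HISAT2 (alignment), SAMtools, Subread 1.5.1 with featureCounts (counting) and DESeq2 1.16.1. How strand and multi-mapped reads were treated is not given in the sources used here. This build is that of the B6 strain, and how well D2 reads aligned was not tested. The authors deposited raw counts per gene.

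Of 37444 entries, 3 named no gene (at most 0.0190% of a library). Total counts ran from 18.7 to 39.7 M. Depth and the number of libraries limit the precision. Genes passing filterByExpr (19003) were scaled by TMM and fitted with edgeR 4.0.16 (robust quasi-likelihood, 6 groups and batch, 32 libraries, R 4.3.3), with two-sided tests in 13 contrasts and Benjamini-Hochberg adjustment over all genes tested in each, at 0.05. The SE is the log2 change divided by the square root of F. RPKM used the median length of protein-coding transcripts (GENCODE, GRCm38). The fit was tested on simulated data. DESeq2 1.42.0, other scalings and filters, batch choices, a replicate block, the granulosa level (mean log2 CPM with a prior count of 3) and leaving out libraries were the alternatives.

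Members and lists were chosen with earlier results of these data known. Named with values were, in each complex, the 2 called members with the largest fall and the 1 with the largest rise or the smallest change, the highest RPKM, the complex IV isoforms, the c-subunit genes, up to 4 called members per strain contrast, and up to 2 called genes of other lists. Sdhc, Uqcrc1, Uqcrfs1, Cyc1, Cox6a1, Cox5a, Cox6b1, Cox7a2l, Atp5e, Atp5a1, Atp5pb, Atp5j2, Cycs, Ndufa4, Uqcc2, Atpif1, Gabpa and Nrf1 were added after their values were seen. Replicate numbers did not pair the libraries. No 2 libraries agreed within sampling noise (lowest chi-square per gene 22.7).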

Additional observations from a re-analysis of the deposited data

Results flagged for a closer look

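Of 126 sets of values, 7 had 1 library far from the others of its group. The sets were the summed level of each complex and 17 named genes, in each of the 6 groups. For normal values the rule flags about 1 set in 20. Because the sets mix batches that differ in level, that rate may not hold here. Whether chance gave these 7 therefore cannot be told. Cox6a2 stood at 20.4 CPM in B6 GV batch 1 replicate 5 (others 10.0 to 11.8) (1 of 7 libraries that each ended its strain call in GV when left out), and at 11.0 CPM in D2 GV batch 1 replicate 5 (others 4.77 to 6.55). Sdhb stood at 8.56 CPM in B6 MII batch 1 replicate 1 (others 1.12 to 2.33). Sdha stood at 99.9 CPM in F1 GV batch 2 replicate 2 (others 77.7 to 84.9), and Atp5k at 0.317 CPM in D2 MII batch 2 replicate 2 (others 1.48 to 1.78). Cox7a1 was at 0.0317 CPM in D2 MII batch 1 replicate 2 and at 0.0432 CPM in F1 MII batch 2 replicate 1, each from 1 read where the others had 0.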

How the results depend on the processing

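The count of members called between the stages (42) stayed within 1.5 times in each alternative run. Genes that changed sign without being called were Sdhc (0.10 in batch 2 alone, 0.027 with the replicate block, 0.018 with the granulosa covariate), Cox6a2 (0.10 in batch 2 alone) and Cox8a (-0.055 in batch 2 alone). Strain counts moved more, and the cause was not tested. Apart from DESeq2, shares of all genes called are not given for these strain settings, and fewer libraries can lower a count. For D2 against B6 in GV, the count of 1 became 2 with DESeq2 and 0 in batch 1 alone, in batch 2 alone, without a batch term and without the GV libraries of low granulosa level, and 0 to 2 on leaving out 1 library. For D2 against B6 in MII, 5 became 3 in batch 1 alone, 2 in batch 2 alone, 2 without a batch term and 3 to 8 on leaving out 1 library. For F1 against B6 in MII, 4 became 7 with the filter of 1 CPM in 16 libraries, 9 with DESeq2, 1 in batch 1 alone, 0 in batch 2 alone, without a batch term and with the replicate block, and 0 to 6 on leaving out 1 library. For F1 against D2 in MII, 3 became 5 with DESeq2, 1 in batch 2 alone and with the granulosa covariate, 0 without a batch term, and 0 to 4 on leaving out 1 library.

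Libraries that ended single calls when left out were D2 MII batch 1 replicate 2 for Uqcrb, 5 for Sdhb and 4 for Cox7a2l in D2 against B6, and, in F1 against B6, 1 for Atp5o, 4 for Cox4i1, 4 for Cox5b and 10 for Uqcrq. In F1 against D2 they were 4 for Cox4i1, 5 for Uqcrq and 18 for Atp5o. The MII to GV ratio of median summed levels per length, batches mixed, was 0.635 for complex II, 0.191 for III and 0.273 for V, where within batches 1 and 2 it was 0.606 and 0.811, 0.202 and 0.380, and 0.271 and 0.373. In CPM it was 0.933 for complex II and 0.560 for III in batch 2, and for III 0.295 to 0.375 on leaving out 1 library, batches mixed. Of 59 pairs of libraries that share a replicate number within a batch and differ in group, 11 correlated above 0.1 (from -0.486 to 0.359), and 8 of 32 libraries correlated best with their own number, so the numbers do not pair them. With the replicate block 42 members were called between the stages.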

Other observations

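Of the 11 tested nuclear regulators of respiratory genes, 5 were called between D2 and B6 in GV and 4 in MII, beside 20.5% and 26.4% of all genes. Nrf1, whose motif is in 10 of the members' promoters, was at 81.0 ± 13.5 CPM in B6 GV (SD, n = 5) and 40.8 ± 4.04 in D2 GV (SD, n = 5), with F1 GV at 61.4 ± 7.51 (SD, n = 6). In MII eggs it was at 83.8 ± 12.0 CPM in B6 (SD, n = 6), 41.7 ± 5.88 in D2 (SD, n = 5) and 59.9 ± 7.25 in F1 (SD, n = 5). All D2 libraries were below all F1 and B6 libraries at each stage. The difference of D2 from B6 was -0.98 ± 0.11 on the log2 scale in GV and -1.03 ± 0.10 in MII (adjusted p = 5.22e-09 and 5.85e-10, edgeR). Pprc1 differed in the opposite direction, by 1.11 ± 0.14 in GV and 0.78 ± 0.13 in MII (adjusted p = 9.07e-08 and 1.26e-05, edgeR), and D2 libraries were all above B6 libraries at each stage.

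Of the 10 members whose promoters hold the NRF1 motif, 0 were called between D2 and B6 in GV or in MII in edgeR's test, beside 20.5% and 26.4% of all genes. At an unadjusted p under 0.05 there were 0 and 1, beside 30.5% and 36.5% of all genes, and DESeq2 called 0 and 1 (Sdha in MII), beside 23.3% and 29.7%. Their median log2 difference of D2 from B6 was 0.12 in GV (from -0.54 to 1.05) and 0.09 in MII (from -0.27 to 0.66). These genes were chosen after their values were seen, and no relation between the regulator and these members was tested.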
